A study of Homo sapiens with 40 samples.

Results

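The 4 human PFKFB genes, PFKFB1 to PFKFB4, were examined for accessible chromatin in BT474 and BT474R cells. Peaks of 40 ATAC-seq libraries were merged where they overlapped by at least 1 bp, and the 71600 regions found in at least 2 libraries were kept. A region was assigned to a PFKFB gene when its midpoint lay in the GENCODE gene body or within 50 kb of either end of the gene. This gave 38 regions, of which 1 lay at PFKFB1, 12 at PFKFB2, 13 at PFKFB3 and 12 at PFKFB4. Distances are given in kb from the main start site of the gene to the midpoint of the region, positive in the direction of transcription.

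BT474 is an established breast ductal carcinoma line with high HER2 that responds to trastuzumab, an antibody against HER2. BT474R is a single resistant clone that grew out of BT474 under trastuzumab, so what is specific to the clone and what is tied to resistance cannot be told apart. In both lines, serum-starved cells were collected at 0 h (baseline) or after 1, 12 and 24 h with epidermal growth factor (EGF, the ligand of EGFR), heregulin (HRG, which binds HER3 and HER4) or vehicle (control). Each of the 20 groups held 2 libraries. The labels do not say whether these came from separate cultures, so p-values measure only the spread between these libraries, which may be technical.

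PFKFB enzymes make and break down fructose 2,6-bisphosphate, the strongest allosteric activator of phosphofructokinase-1, and so set the pace of glycolysis. PFKFB1 is the isoform known from liver and muscle, PFKFB2 that of heart, PFKFB3 is an inducible isoform with very high kinase activity that many tumours express, and PFKFB4 was first found in testis and is induced by hypoxia. An open promoter marks a gene that can be transcribed, and distal open regions often hold enhancers, but an ATAC-seq peak does not measure transcription.

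Each peak carries a score, the area under its curve of significance, that is comparable only within its own list. It was therefore turned into a rank percentile, where 100 is the highest peak of that library and 0 is a region without a peak. The score grows with the width of a peak, so the percentile describes area and not height. The BT474 lists held 47571 to 56846 peaks and the BT474R lists 32479 to 56494. The shortest list was replicate 1 of the 12 h control in BT474R, and its partner held 40331. A weak region may be missing from a short list, so the tests were also run with every list cut to an equal number of top peaks. Read depth could not be learned from the lists, and a missing peak does not show closed chromatin. Of 12 luminal and epithelial marker genes, 11 had a peak within 1 kb of a start site in all 40 libraries, and ESR1 had one in 39. Other marker lists were mixed: PTPRC, CD3E, COL1A2 and PECAM1 had no peak in any library, while COL1A1, CDH5 and VIM had one in all 40.

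The sequences of 7 of the distal regions described below are shown first, because they can be set beside their behaviour in the cells. Each is the 300 bases around the highest summit, taken from the plus strand of GRCh38, and none overlaps an annotated exon or untranslated region of the genes at these loci. Capitals mark matches to the AP-1 consensus TGANTCA, the site bound by FOS and JUN proteins. The first lies inside the PFKFB3 gene, past the end of its main transcript, and had a peak in all 40 libraries (chr10:6239233-6239532).
PFKFB3 +36.5 kb: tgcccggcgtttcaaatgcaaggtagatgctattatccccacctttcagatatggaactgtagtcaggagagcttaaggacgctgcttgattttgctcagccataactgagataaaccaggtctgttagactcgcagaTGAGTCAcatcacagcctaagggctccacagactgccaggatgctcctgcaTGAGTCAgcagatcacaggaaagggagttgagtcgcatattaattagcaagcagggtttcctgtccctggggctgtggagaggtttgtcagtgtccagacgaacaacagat
The next 3 lie downstream of PFKFB3 in LINC02649, a long non-coding RNA gene, and had peaks in BT474R at 24 h only, in both EGF libraries and, at +76.7 and +96.5 kb, in 1 and 2 HRG libraries (chr10:6275286-6275585, chr10:6279452-6279751 and chr10:6299224-6299523).
PFKFB3 +72.5 kb: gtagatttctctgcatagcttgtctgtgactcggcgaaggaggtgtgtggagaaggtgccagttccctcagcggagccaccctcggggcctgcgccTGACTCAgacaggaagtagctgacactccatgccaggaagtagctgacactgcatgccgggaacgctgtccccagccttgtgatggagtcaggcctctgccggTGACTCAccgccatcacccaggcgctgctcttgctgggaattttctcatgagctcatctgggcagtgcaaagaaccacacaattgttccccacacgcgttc
PFKFB3 +76.7 kb: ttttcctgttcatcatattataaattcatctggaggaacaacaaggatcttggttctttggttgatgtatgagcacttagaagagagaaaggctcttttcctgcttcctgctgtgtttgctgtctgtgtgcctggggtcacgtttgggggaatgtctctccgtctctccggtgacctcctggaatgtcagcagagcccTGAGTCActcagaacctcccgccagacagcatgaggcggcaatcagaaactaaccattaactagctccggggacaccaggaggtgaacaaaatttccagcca
PFKFB3 +96.5 kb: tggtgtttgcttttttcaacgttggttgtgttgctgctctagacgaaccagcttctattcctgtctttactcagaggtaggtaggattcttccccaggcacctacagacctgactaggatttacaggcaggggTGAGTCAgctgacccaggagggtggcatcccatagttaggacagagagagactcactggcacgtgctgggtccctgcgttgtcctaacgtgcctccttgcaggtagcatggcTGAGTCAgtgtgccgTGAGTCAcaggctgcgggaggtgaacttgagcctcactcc
The fifth lies in the same RNA gene, close to the last of these, and had a peak in every BT474 library and in no BT474R library (chr10:6296972-6297271).
PFKFB3 +94.1 kb: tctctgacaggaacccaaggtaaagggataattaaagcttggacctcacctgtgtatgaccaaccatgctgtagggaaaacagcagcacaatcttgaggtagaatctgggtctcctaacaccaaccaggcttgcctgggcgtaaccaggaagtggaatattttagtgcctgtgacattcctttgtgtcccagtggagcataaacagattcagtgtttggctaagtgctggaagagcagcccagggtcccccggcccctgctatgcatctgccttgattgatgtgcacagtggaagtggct
The sixth lies upstream of PFKFB2 in the neighbouring gene C1orf116 (chr1:207024043-207024342), and the seventh lies between PFKFB4 and SHISA5 (chr3:48507552-48507851).
PFKFB2 -28.8 kb: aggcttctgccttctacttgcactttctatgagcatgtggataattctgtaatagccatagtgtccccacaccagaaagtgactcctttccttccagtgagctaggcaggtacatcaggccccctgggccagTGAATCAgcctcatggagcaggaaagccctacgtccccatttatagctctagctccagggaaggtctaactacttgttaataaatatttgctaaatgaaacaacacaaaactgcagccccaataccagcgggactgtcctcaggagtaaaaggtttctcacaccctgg
PFKFB4 +49.0 kb: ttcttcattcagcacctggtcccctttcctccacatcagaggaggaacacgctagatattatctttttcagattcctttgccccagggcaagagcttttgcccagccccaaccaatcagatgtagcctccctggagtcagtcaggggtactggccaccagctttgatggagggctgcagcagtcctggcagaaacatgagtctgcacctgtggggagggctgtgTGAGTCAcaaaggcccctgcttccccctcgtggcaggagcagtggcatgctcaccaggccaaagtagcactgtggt
The first 4 windows hold 2, 2, 1 and 3 AP-1 matches, the fifth holds 0, and the last 2 hold 1 each. Other regions called with a ligand are not shown, some with matches and some without, such as +84.6 and +95.0 kb from PFKFB3.

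Of the 38 regions, 14 (36.8%) had a peak in all 40 libraries, against 35.1% of all 71600 regions. Another 4 (10.5%) were open in BT474 only and 12 (31.6%) in BT474R only, against 13.9% and 14.0% of all regions. The remaining 8 were open in some libraries of both lines. By gene, PFKFB4 had 7 regions open everywhere, PFKFB3 had 4, PFKFB2 had 2 and PFKFB1 had 1. PFKFB4 had no region open in BT474 only, while PFKFB2 and PFKFB3 had 2 each.

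**Figure D1:**
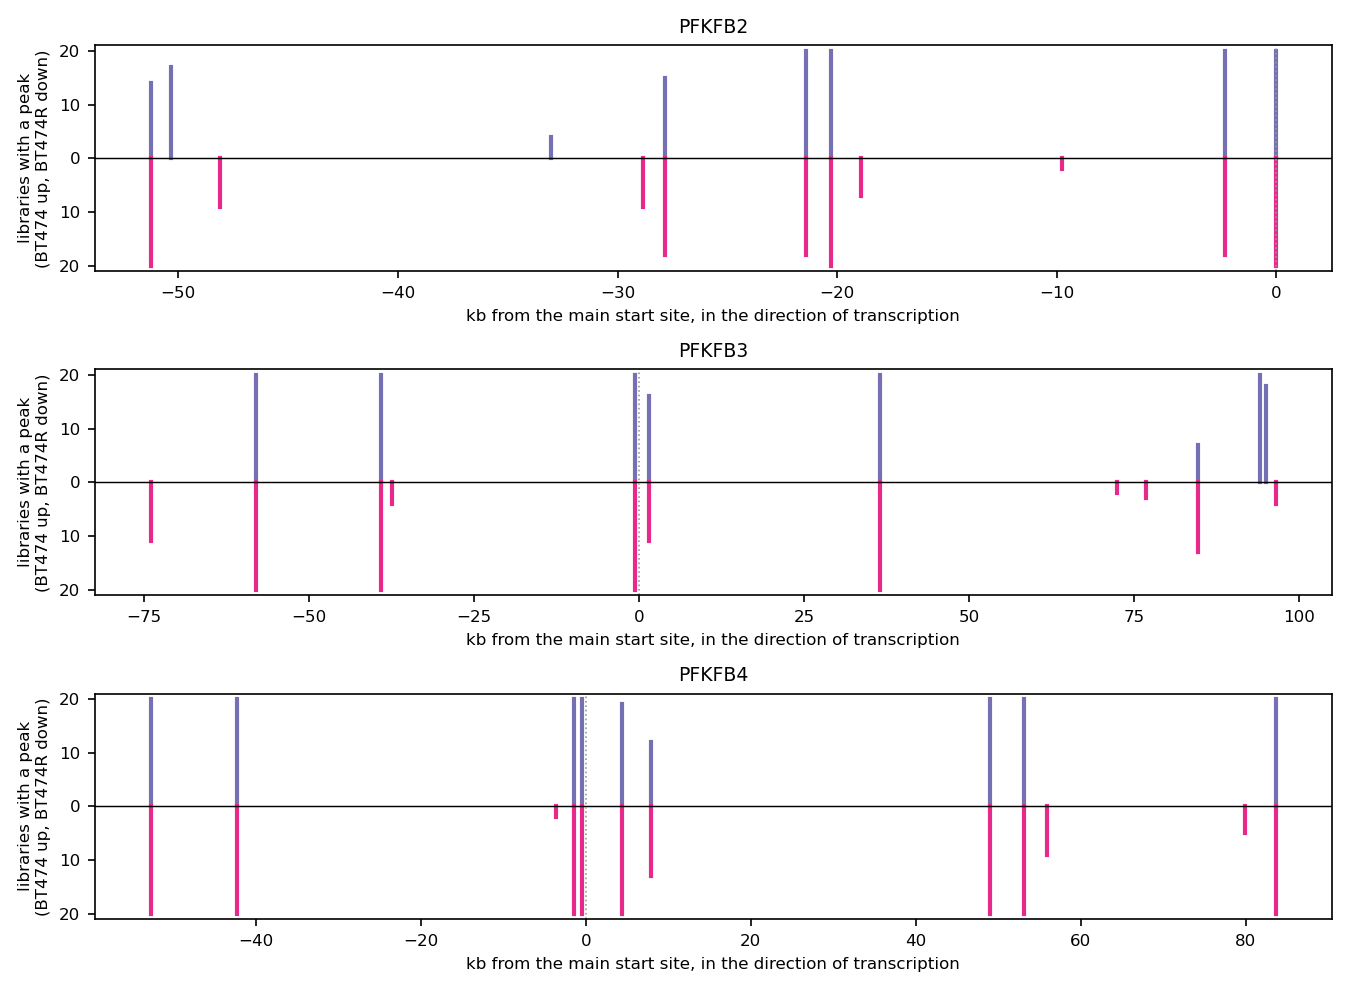
Number of libraries with a peak (y axis, of 20 BT474 libraries upward and 20 BT474R libraries downward) at each region of PFKFB2, PFKFB3 and PFKFB4, against its distance in kb from the main start site (x axis, dotted line at the start). The regions at +94.1 and +95.0 kb from PFKFB3 point upward only, with 20 and 18 BT474 libraries and 0 BT474R libraries.

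PFKFB1 had no region at any of its own start sites. Its gene body (X:54932961-54998534, minus strand) held none either, and its 1 region lay 5.9 kb upstream at X:54999603-55000640. That region holds the start site of APEX2, a DNA repair nuclease gene, and was open in all 40 libraries at percentiles of 86.5 to 90.8 in BT474 and 89.7 to 92.5 in BT474R. No ligand comparison of it passed the test. It was 2.87 percentile points higher in BT474R than in BT474 (SE 0.314, limma adjusted p = 1.2e-08).

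The other 3 genes had a strong promoter region in every library. The main promoter of PFKFB2 (chr1:207052698-207053804, 1107 bp) is shared with YOD1, a deubiquitinase gene read in the opposite direction. It ranked at 87.9 to 91.5 in BT474 (median 89.5) and at 88.9 to 92.8 in BT474R (median 91.0). The main promoter of PFKFB4 (chr3:48556632-48557880, 1249 bp) ranked at 84.0 to 91.4 in BT474 (median 88.3) and at 88.9 to 95.4 in BT474R (median 93.3). In BT474 the ranges of these 2 promoters overlapped. The PFKFB4 promoter moved with time in all arms: in BT474R the 6 libraries at 1 h stood at 88.9 to 90.4 and the other 14 at 92.8 to 95.4, and in BT474 it stood at 84.0 to 87.4 at 1 h and at 89.0 to 91.4 at 24 h. The 1 h lists of BT474R were among the longest, with 47474 to 56494 peaks. No test of the times against each other was made.

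PFKFB3 had 3 promoter regions. The one with the highest mean percentile lay 39.0 kb upstream of the main start (chr10:6163379-6164408, 1030 bp) and holds the start of the transcript PFKFB3-218. It ranked at 81.3 to 85.2 in BT474 (median 82.8) and at 74.4 to 86.6 in BT474R (median 84.4). The main start lies in a much wider region (chr10:6200934-6203803, 2870 bp) that ranked at 72.7 to 85.7 in BT474 (median 77.2) and at 71.0 to 97.8 in BT474R (median 85.2). It also holds the start of an antisense long non-coding RNA gene, and ATAC-seq does not separate the strands. The third, at -58.0 kb (chr10:6144266-6145527), holds the start of PFKFB3-205 and ranked at 53.9 to 78.8 and 36.9 to 74.6 in the same lines.

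The wide main promoter of PFKFB3 was divided into a different number of peaks in different libraries. In 20 libraries it was split into 3 peaks, the highest of them at 72.7 to 83.4 (median 75.4). In 19 it was 2 peaks (71.0 to 94.1, median 85.7), and in replicate 1 of HRG-BT474R at 24 h it was 1 peak at 97.8. The ranges for 2 and 3 peaks overlapped, and the part of this division in the percentile was not tested. At 24 h in BT474R the controls stood at 80.4 and 93.2, the EGF libraries at 93.8 and 94.1 and the HRG libraries at 97.8 and 93.4. The ligand libraries thus all lay above the control libraries at that time, but no ligand comparison of this region passed the test.

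**Figure D2:**
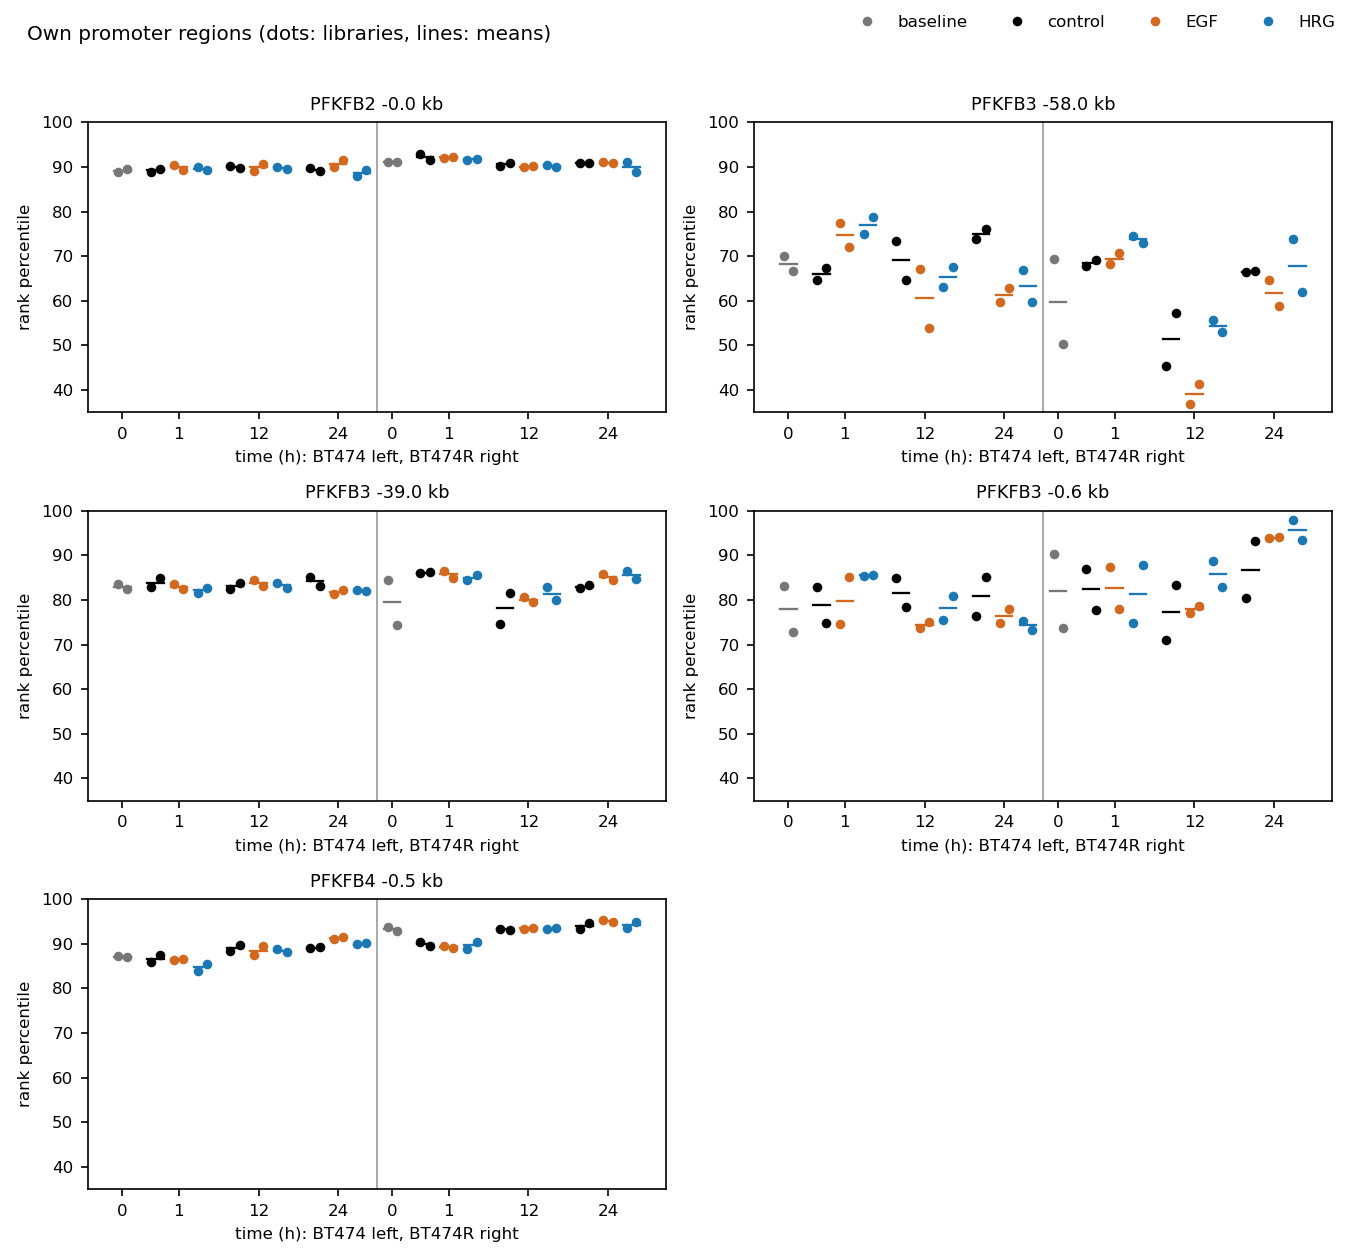
Rank percentile (y axis, from 35 to 100) of the main promoter regions of PFKFB2, PFKFB3 and PFKFB4 and of the -39.0 and -58.0 kb promoter regions of PFKFB3 by time in h (x axis), with 1 dot per library, a line at the mean of each group of 2, and colours for baseline, control, EGF and HRG. The main promoter of PFKFB4 lies at 84.0 to 91.4 in BT474 and mostly higher, at 88.9 to 95.4, in BT474R, and that of PFKFB3 spreads from 71.0 to 97.8.

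No ligand test of a main promoter passed in either line. Of the promoter regions of the family, only 2 gave a call against control at any time. The -58.0 kb promoter of PFKFB3 stood at 73.9 and 76.1 in control-BT474 at 24 h and at 59.6 and 62.8 in EGF-BT474, so the groups did not overlap, and it fell by 13.75 points (SE 4.02, limma adjusted p = 0.033). The call was lost when any 1 of these 4 libraries was left out. HRG-BT474 at 24 h stood at 66.9 and 59.7 there. At 1 h its order was the opposite, with 64.6 and 67.2 in control, 77.5 and 72.1 with EGF and 74.9 and 78.8 with HRG, a difference that did not pass the test. The weak +7.9 kb region of PFKFB4 at the start of a shorter PFKFB4 transcript had peaks at 12.0 and 17.5 in control-BT474 at 24 h and none with HRG, and fell by 14.77 points (SE 4.50, limma adjusted p = 0.044), a call lost without any one of 11 BT474 libraries.

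Between the lines, 24 of the 38 regions passed the test, 17 higher in BT474R and 7 higher in BT474, but 77.6% of all 71600 regions did so too. The line comparison therefore says little about these genes as a group. Of the 24, 8 higher in BT474R and 3 higher in BT474 had peaks in that line alone and were tested only because of them. The median difference (BT474R minus BT474) was 1.99 points over the 38 regions and -1.22 points over all regions. The main promoter of PFKFB4 was 4.41 points higher in BT474R (SE 0.244, limma adjusted p = 3.5e-14). That of PFKFB2 was 1.39 points higher (SE 0.239, adjusted p = 1.3e-05) and that of PFKFB3 5.77 points higher (SE 1.78, adjusted p = 0.0052). The peak of this PFKFB3 promoter was divided differently between libraries, and the part of that in the difference was not tested. The -39.0 kb promoter of PFKFB3 differed by -0.05 points (SE 0.669, adjusted p = 0.94).

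The lines were also compared by the presence of a peak. By Fisher's exact test, 9 of the 14 regions that could be called at all (64.3%) differed after adjustment, against 71.7% of all such regions. Among them, 6 were open more often in BT474R and 3 in BT474. With only 14 regions, this share does not set the family apart. Before adjustment the count was 10, against 79.3%. The lowest p was that of the +94.1 kb region of PFKFB3, open in 20 of 20 BT474 libraries and 0 of 20 BT474R libraries (adjusted p = 1.9e-10). Its percentile in BT474 ran from 23.0 to 49.5 with a median of 44.2, so it was a mid-ranked peak throughout that line. The +95.0 kb region beside it (chr10:6297508-6298304) was open in 18 against 0 libraries (adjusted p = 2.3e-08), and the -50.3 kb region of PFKFB2 (chr1:207002771-207003145) in 17 against 0 (adjusted p = 1.5e-07). When every list was cut to an equal number of top peaks, only the +94.1 and -51.2 kb regions of these 9 still passed. The +95.0 kb region was then open in 15.0 percentage points fewer BT474R than BT474 libraries, too few to be called.

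The 6 regions open more often in BT474R lay mostly in the flanks, and all but the -51.2 kb region carry the same limits. The -73.9 kb region of PFKFB3 (chr10:6128821-6129235) was open in 11 of 20 BT474R libraries and in 0 of 20 BT474 libraries (adjusted p = 0.00036). The -48.1 and -28.8 kb regions of PFKFB2 and the +55.9 kb region of PFKFB4 were each open in 9 against 0 (adjusted p = 0.0024 for each). The -18.9 kb promoter region of PFKFB2, at the start of PFKFB2-203, was open in 7 against 0 (adjusted p = 0.013). The -51.2 kb region of PFKFB2 was open in 20 against 14 (adjusted p = 0.029), with median percentiles of 30.9 and 5.99. In BT474R the percentiles of the 4 regions open in 7 or 9 libraries reached 21.6, 43.9, 33.0 and 21.6 at most, in the order -48.1, -28.8, +55.9 and -18.9 kb.

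The effect of each ligand was then tested against the control of the same line. In EGF-BT474, 5 of 26 tested regions rose and 0 fell with the 3 times pooled, against 18.6% of all tested regions called. In HRG-BT474, 3 rose and 1 fell, against 19.9%. In EGF-BT474R, 8 of 34 tested regions rose and 0 fell, against 16.2%, and in HRG-BT474R 2 rose and 0 fell, against 6.7%. With equal numbers of top peaks the counts were 3 in EGF-BT474, 1 in EGF-BT474R and 0 in HRG-BT474R. The -28.8 and -51.2 kb regions of PFKFB2, the -73.9, +76.7 and +84.6 kb regions of PFKFB3 and the +7.9 and +55.9 kb regions of PFKFB4 then had too few peaks for the ligand tests in which they are called below. Of the 8 in EGF-BT474R, the +72.5 and +76.7 kb regions of PFKFB3 were tested only because of their peaks in the EGF libraries, so the count is a description. These shares gave no sign that the family stood out. The median differences over the members were 1.61, -0.22, 1.48 and 3.18 points in the same order, and those over all tested regions 1.28, 0, -0.03 and 2.27. The remaining 12 and 4 regions had no peak in BT474 and BT474R and were not tested there.

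The +36.5 kb region of PFKFB3 (chr10:6239169-6239627), in the gene body but past the end of the main transcript, rose with both ligands in BT474. In BT474 the 6 control libraries ranked at 59.4 to 62.9 (median 61.3), the 6 EGF libraries at 66.8 to 74.0 (median 69.9) and the 6 HRG libraries at 65.5 to 70.2 (median 66.7). Both ligand groups lay above every control library, and baseline stood at 61.3 and 59.7. It rose by 8.65 points with EGF (SE 1.36, limma adjusted p = 0.00041) and by 6.0 points with HRG (SE 1.36, adjusted p = 0.0056). The gap was already visible at 1 h, where EGF stood at 70.1 and 67.9 and control at 62.9 and 61.1, although the 1 h test alone did not pass.

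In BT474R the same region ranked at 50.3 to 69.0 in control (median 61.2), 66.2 to 72.3 with EGF (median 68.1) and 64.1 to 68.3 with HRG (median 66.6). The groups overlapped, because 1 of the 1 h control libraries stood at 69.0. It rose by 7.59 points with EGF (SE 2.03, limma adjusted p = 0.020), but this call rested on single libraries and was lost without any one of 5 of them, with adjusted p between 0.054 and 0.065. These were replicate 2 of the 1 h control, replicate 1 of EGF at 1 h, replicate 1 of EGF at 12 h, replicate 1 of the 24 h control and replicate 2 of EGF at 24 h. HRG-BT474R did not pass the test. The control values were lowest at 12 h, 50.3 and 60.2, where the control lists were also the shortest.

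The -42.3 kb region of the PFKFB4 locus (chr3:48598236-48599988) covers the 3′ end of UQCRC1, a gene of mitochondrial complex III, and lies 3.8 kb upstream of the start of COL7A1, the gene of type VII collagen. It lies within 1 kb of the start of a minor UQCRC1 transcript, and it was the only member to pass the pooled test with both ligands in both lines. In BT474 at 24 h, control stood at 91.1 and 88.4, EGF at 96.8 and 96.8 and HRG at 96.2 and 96.6. Ligand and control libraries did not overlap there or at 12 h, whereas at 1 h all 6 libraries lay between 89.4 and 92.6. With the times pooled it rose by 3.55 points with EGF (SE 0.485, limma adjusted p = 0.00013) and by 3.30 points with HRG (SE 0.485, adjusted p = 0.00021).

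In BT474R this region rose by 2.17 points with EGF (SE 0.557, limma adjusted p = 0.016) and by 2.03 points with HRG (SE 0.557, adjusted p = 0.045). The 12 h control libraries stood at 88.7 and 92.6, and all other BT474R libraries between 93.6 and 96.6. Without the 12 h control replicate with 32479 peaks, the 12 h differences fell from 4.15 to 2.21 points for EGF (adjusted p = 0.14) and from 4.69 to 2.75 points for HRG (adjusted p = 0.10). The pooled HRG call was lost without any one of 15 libraries, and the pooled EGF call without replicate 2 of the 1 h control or replicate 1 of EGF at 1 h (adjusted p = 0.051 for each).

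The +49.0 kb region (chr3:48507303-48508235), the highest-ranked region of the PFKFB4 locus without a start site within 1 kb, lies 3.6 kb upstream of the start of SHISA5, a gene linked to p53-dependent cell death. In BT474R the controls ranked at 81.0 to 86.7, the EGF libraries at 84.6 to 88.3 and the HRG libraries at 86.2 to 88.7. It rose by 2.67 points with EGF (SE 0.706, limma adjusted p = 0.019) and by 3.18 points with HRG (SE 0.706, adjusted p = 0.017). In BT474 it rose by 2.47 points with EGF (SE 0.801, adjusted p = 0.044) and HRG did not pass. These are small shifts. The BT474 call was lost without any one of 15 libraries, with adjusted p up to 0.14. In BT474R the EGF call was lost without replicate 2 of EGF at 1 h or 24 h, replicate 1 of EGF at 12 h or replicate 1 of the 24 h control (up to 0.068), and the HRG call without replicate 2 of the 1 h control, replicate 2 of HRG at 12 h or replicate 1 of the 24 h control (up to 0.056). With equal numbers of top peaks the differences were 2.74 points (EGF-BT474R), 2.06 points (HRG-BT474R) and 2.57 points (EGF-BT474), with limma adjusted p of 0.17, 0.47 and 0.17.

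**Figure D3:**
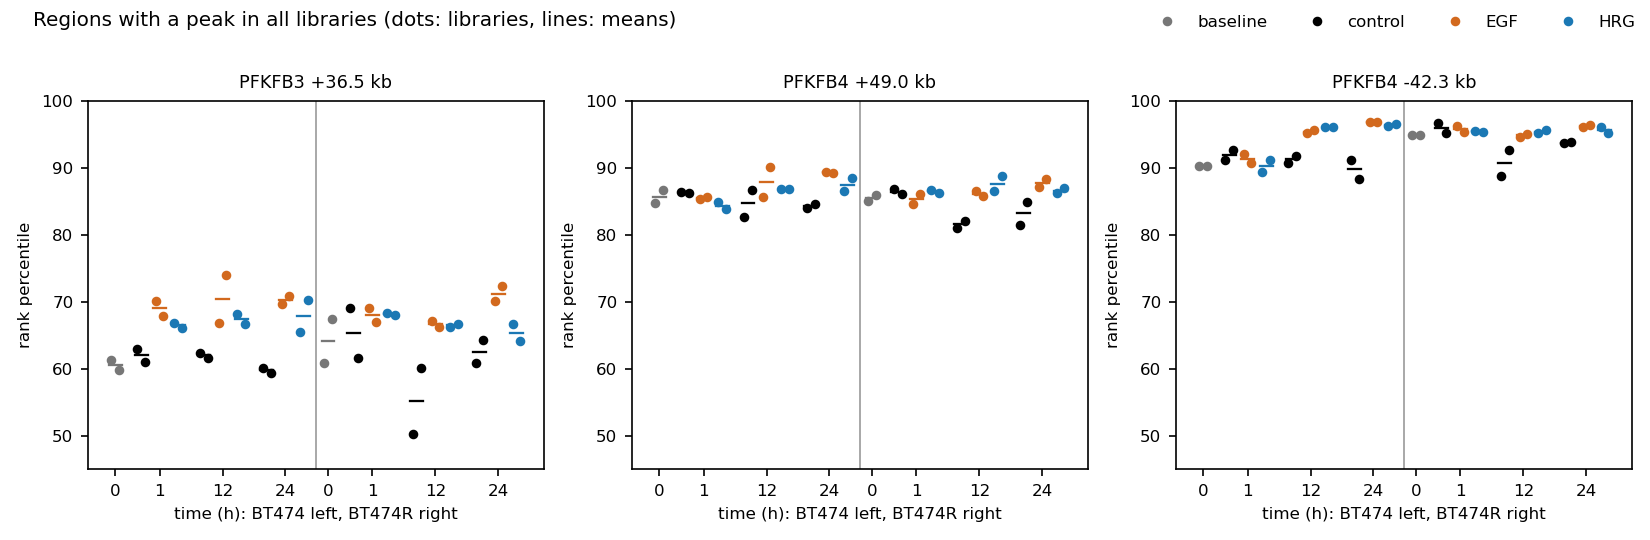
Rank percentile (y axis, from 45 to 100) by time in h (x axis) of the 3 regions outside the PFKFB promoters that had a peak in all 40 libraries and rose with a ligand in both lines, with 1 dot per library and a line at the mean of each group of 2. In BT474 the EGF (66.8 to 74.0) and HRG (65.5 to 70.2) dots of the +36.5 kb region of PFKFB3 lie above all control dots (59.4 to 62.9).

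Downstream of PFKFB3, 6 regions lie in LINC02649 (chr10:6271169-6353827), and they behaved in 3 ways. At +72.5 kb (chr10:6275217-6275594) there was a peak in both EGF-BT474R libraries at 24 h, at percentiles of 41.3 and 49.6, and in none of the other 38 libraries. At +96.5 kb (chr10:6299204-6299571) the EGF-BT474R libraries at 24 h stood at 41.2 and 41.1 and the HRG-BT474R libraries at 24 h at 11.8 and 8.73, and the other 36 had no peak. At +76.7 kb (chr10:6279481-6279867) they stood at 26.9 and 20.7 with EGF, replicate 1 of HRG had a peak at 6.53, and the other 37 libraries had none. All 3 regions were thus seen in BT474R at 24 h only, and in each of them EGF exceeded HRG.

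The +72.5 and +76.7 kb regions passed the filter of 2 libraries only through the EGF libraries at 24 h, so they had to differ from control and no test of them is given. The +96.5 kb region had 2 peaks outside the EGF libraries. It was higher by 41.15 points at 24 h (SE 2.24, limma adjusted p = 5.4e-08), and this call held when any single library was left out. Groups without a peak have no spread of their own, so the SE comes from few values and from the fit over all regions, and the p-value is too small to be read by its size. Pooled over the times, the exact permutation test within times gave no adjusted call for this or any other region, since 216 arrangements allow no p below 0.00926.

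The lists of these groups also differed in length. The EGF-BT474R libraries at 24 h held 52126 and 51080 peaks and the controls 41833 and 45799. The 5 longer BT474R lists at baseline and 1 h, with 52162 to 56494 peaks, and replicate 1 of HRG at 24 h, with 55289, had no peak at +72.5 kb, whereas at +76.7 kb that HRG library was the one with a peak. With equal numbers of top peaks, the gain at +96.5 kb was 6.50 points at 24 h (limma adjusted p = 0.0041) and 2.17 points over the pooled times (adjusted p = 0.058), and that at +72.5 kb was 13.31 and 4.44 points. The peaks themselves were modest, with −log10 q of 2.98 and 3.30 at +72.5 kb, 2.82 and 2.70 at +76.7 kb and 3.01 and 2.98 at +96.5 kb in the EGF libraries.

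In the direct comparison of the ligands in BT474R over the pooled times, 3 of 34 regions were higher with EGF than with HRG and 0 were lower. Of all 59839 tested regions, 1593 were higher with EGF and 1769 lower, together 5.62%. The difference was 10.30 points at +96.5 kb (limma adjusted p = 0.00037), and with equal numbers of top peaks it was 2.17 points (adjusted p = 0.12). The other 2 were the +72.5 and +76.7 kb regions, whose calls follow from the filter. In BT474, 0 of 26 regions differed by limma, against 0.142% of all regions. At an unadjusted p under 0.05 there were 3, a threshold for which no share of all regions is given.

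The +94.1 and +95.0 kb regions, which lie between them, showed the other pattern and were open in BT474 only. At +95.0 kb the BT474 control libraries stood at 0 to 27.8 (median 13.8), the EGF libraries at 26.5 to 42.4 (median 36.8) and the HRG libraries at 4.16 to 36.6 (median 22.0). EGF and control overlapped by 1 control library. The region rose by 23.17 points with EGF (SE 6.26, limma adjusted p = 0.017), but did not pass without replicate 1 of EGF at 1 h (adjusted p = 0.054) or replicate 1 of the 12 h control (adjusted p = 0.061). With equal numbers of top peaks it was 1.66 points (adjusted p = 0.34). At +94.1 kb no ligand comparison passed the test.

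The sixth region, at +84.6 kb (chr10:6287347-6287730), was open in both lines. In BT474 it had no peak at 0 or 1 h in any library, and at 24 h it stood at 20.7 and 21.9 with EGF, at 13.2 and 31.4 with HRG and at 0 and 4.77 in control. It was higher at 24 h by 18.94 points with EGF (SE 5.80, limma adjusted p = 0.041) and by 19.89 points with HRG (SE 5.80, adjusted p = 0.036). The EGF call was lost without any one of 16 libraries, with adjusted p between 0.053 and 0.19. The HRG call was lost without either 24 h control library or replicate 2 of HRG at 24 h, with adjusted p between 0.092 and 0.34. In BT474R it was open in 13 of 20 libraries, at baseline and 1 h too, and no ligand comparison passed. Its percentile went with the number of peaks at a Spearman's rho of 0.70 in BT474 and 0.73 in BT474R. The 24 h lists of BT474 held 55225 and 56363 peaks with EGF, 52425 and 52766 with HRG and 52331 and 50579 in control. The part of list length in this was not tested.

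**Figure D4:**
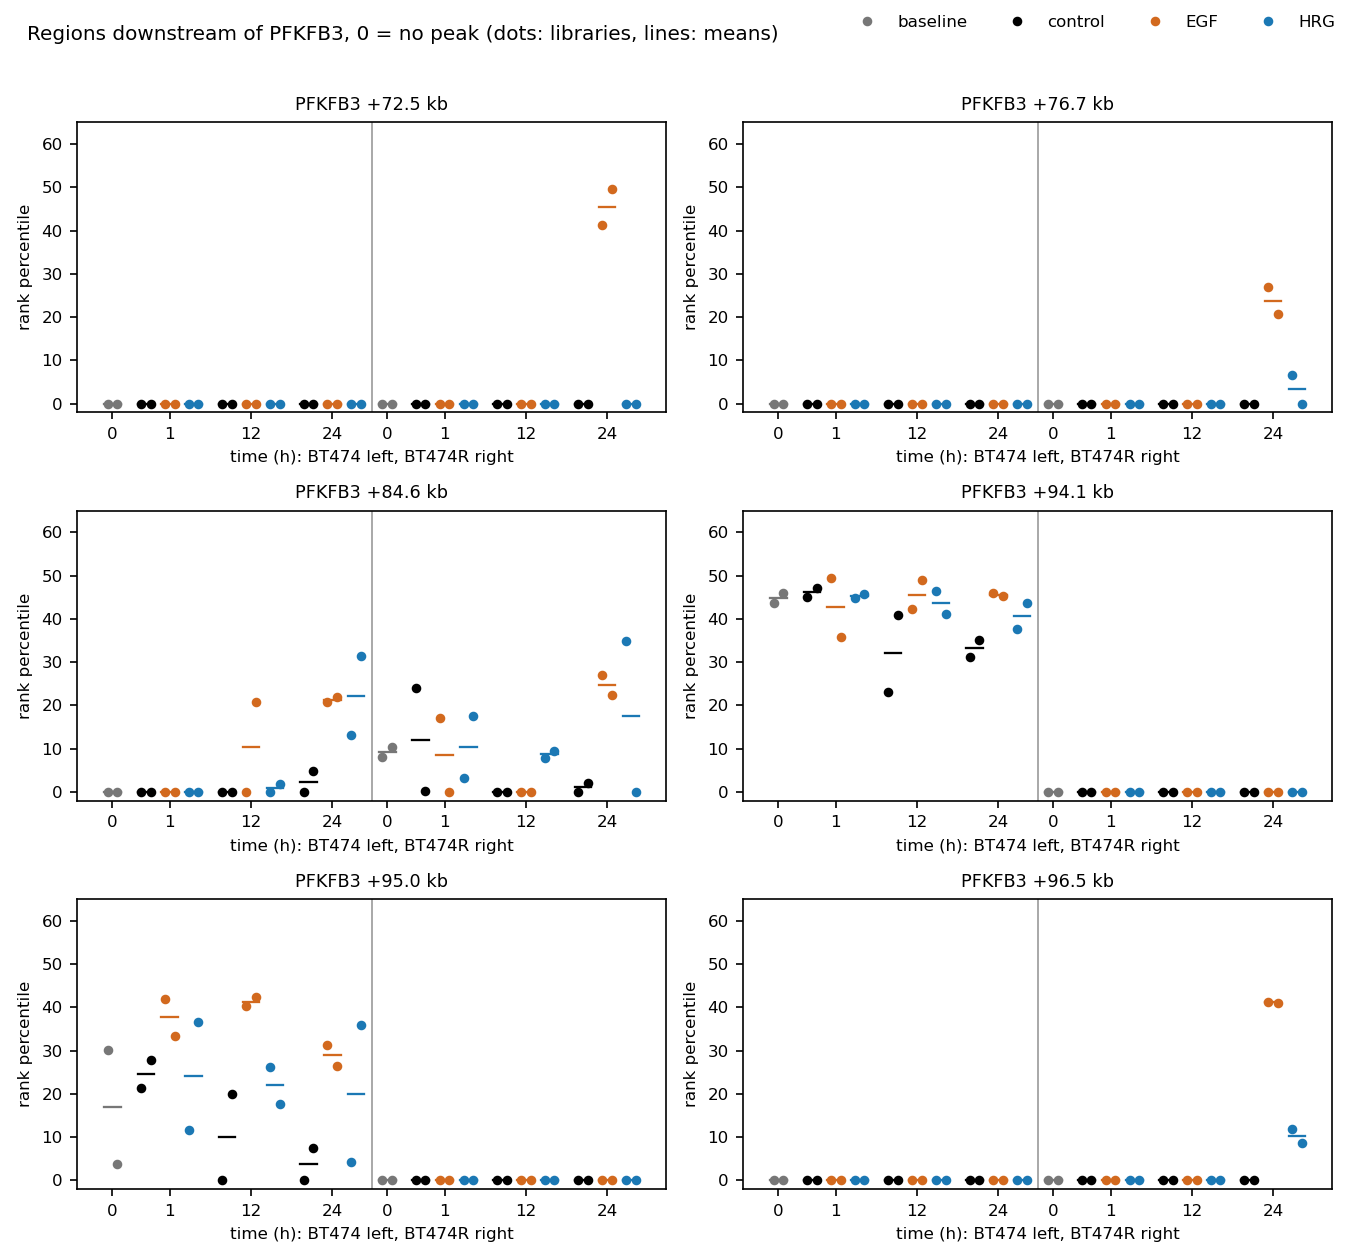
Rank percentile (y axis, 0 where there was no peak) by time in h (x axis) of the 6 regions downstream of PFKFB3 in LINC02649, with 1 dot per library and a line at the mean of each group of 2. The +72.5, +76.7 and +96.5 kb regions rise above 0 in BT474R at 24 h only, to 41.3 and 49.6, 26.9 and 20.7, and 41.2 and 41.1 with EGF, and the +94.1 and +95.0 kb regions in BT474 only.

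Nearer the PFKFB3 start, the +1.5 kb region (chr10:6203948-6204978, first intron of the main transcript) stood at 56.8 and 47.4 in HRG-BT474 at 1 h, at 44.7 and 46.8 in EGF-BT474 and at 0 and 30.8 in control. It rose by 36.71 points with HRG at 1 h (SE 10.6, limma adjusted p = 0.041), a call lost without any one of 12 BT474 libraries, and EGF at 1 h did not pass. In BT474R it was open in 11 of 20 libraries and passed in no ligand comparison. The -37.4 kb region was open in 4 BT474R libraries of 4 different groups, at 2.88 to 18.5. The -73.9 kb region was absent from BT474 and from the BT474R baseline and 24 h control libraries. It stood at 34.2 and 24.0 in EGF-BT474R at 24 h and was higher than control by 29.10 points (SE 8.21, limma adjusted p = 0.026), but it was also open in all 6 BT474R libraries at 1 h, controls included at 26.2 and 8.15. This call was lost when any 1 of the 4 EGF and control libraries at 24 h was left out.

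At PFKFB2, the calls with a ligand lay in the upstream flank and not at the gene. The -28.8 kb region (chr1:207024079-207024789), inside C1orf116, had no peak in BT474. In BT474R it stood at 43.9 and 29.4 with EGF at 24 h and at 0 in both 24 h controls, and HRG stood at 7.95 and 0. It was open in all 6 libraries at 1 h, at 7.76 to 26.8, and in none at 0 or 12 h. The lists at 1 h held 47474 to 56494 peaks and those at 12 h 32479 to 45808. Within BT474R the percentile of this region went with the number of peaks at a Spearman's rho of 0.72. The part of list length in its pattern was not tested. With EGF it rose by 36.64 points at 24 h (SE 5.04, limma adjusted p = 0.00017) and by 13.37 points over the pooled times (SE 2.91, adjusted p = 0.0059).

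The -51.2 kb region (chr1:207001844-207002210) is intergenic. In BT474 it was open in 2 of 6 control libraries at up to 4.62, in 4 of 6 EGF libraries at up to 19.5 and in all 6 HRG libraries at up to 23.9. The baseline libraries stood at 5.12 and 9.40, above all controls. It rose by 9.32 points with EGF (SE 2.87, limma adjusted p = 0.034) and by 9.71 points with HRG (SE 2.87, adjusted p = 0.026). Both calls were weak: the EGF call was lost without any one of 8 libraries (adjusted p up to 0.095) and the HRG call without any one of 7 (up to 0.077). The -33.0 kb region (chr1:207020117-207020355) had a peak in the 4 ligand libraries of BT474 at 1 h, at 0.333 to 10.6, and in no other library, and no ligand comparison of it passed.

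The other PFKFB2 regions did not change with a ligand past the test. The -20.3 kb region, shared by C1orf116 and the upstream PFKFB2 transcripts (chr1:207032381-207033598), was open everywhere at 82.6 to 92.6 in BT474 and 90.1 to 95.7 in BT474R. The -21.4 kb region within 1 kb of the C1orf116 start was higher in BT474, with medians of 56.9 and 33.7. The -27.9 kb region was open in 15 and 18 libraries of BT474 and BT474R, and the -2.3 kb region at a YOD1 start in 20 and 18. The -9.8 kb region appeared in 2 BT474R libraries only, at 0.442 and 2.66.

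At PFKFB4, 1 further region rose with EGF in BT474R. The +55.9 kb region (chr3:48500639-48501123), inside SHISA5, stood at 33.0 and 22.2 with EGF at 24 h, at 18.7 and 0 with HRG and at 0 in both controls. It had no peak in BT474 or at the BT474R baseline. Over the 3 times in BT474R it was open in 5 of 6 EGF, 3 of 6 HRG and 1 of 6 control libraries. It rose by 27.61 points at 24 h (SE 6.10, limma adjusted p = 0.0062) and by 16.04 points over the pooled times (SE 3.52, adjusted p = 0.0063). The 24 h call was lost without replicate 1 of EGF at 24 h.

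In the first intron of PFKFB4, the +4.3 kb region (chr3:48552222-48552728) was the only one to fall with a ligand over the pooled times. At 1 h in BT474 it stood at 35.5 and 21.7 in control, at 0 and 10.3 with HRG and at 4.80 and 12.6 with EGF. It fell by 23.47 points with HRG at 1 h (SE 6.38, limma adjusted p = 0.031) and by 13.47 points over the pooled times (SE 3.68, adjusted p = 0.018). EGF-BT474 at 1 h lay below control as well but did not pass, and by 24 h EGF stood at 42.5 and 38.4 beside control at 40.3 and 35.7. The 1 h call was lost without replicate 1 of control or of HRG at 1 h (adjusted p = 0.26 and 0.24). The pooled call was lost without either of these, replicate 2 of the 12 h control or replicate 2 of HRG at 24 h (0.051 to 0.061), and with equal numbers of top peaks the difference was -1.24 points (limma adjusted p = 0.38).

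The remaining PFKFB4 regions passed no ligand test. They were the -1.5 kb region upstream of the promoter (medians 51.5 in BT474 and 56.1 in BT474R), the -52.8 kb promoter of UQCRC1 (65.2 and 65.1), and the +83.7 kb and +53.1 kb regions at SHISA5 starts (71.5 and 68.6, and 48.0 and 56.4). The -3.7 kb region was open in 2 BT474R libraries, replicate 1 of HRG and replicate 1 of EGF at 24 h, and the +79.9 kb region in 5. The +53.1 kb region ranged from 9.62 to 86.3 in BT474R. Like the main promoter of PFKFB3 it was divided in some libraries. Its median percentile was 44.4 in the 21 libraries where it was 1 peak and 59.6 in the 17 where it was 2. This order is the reverse of that at the PFKFB3 promoter.

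**Figure D5:**
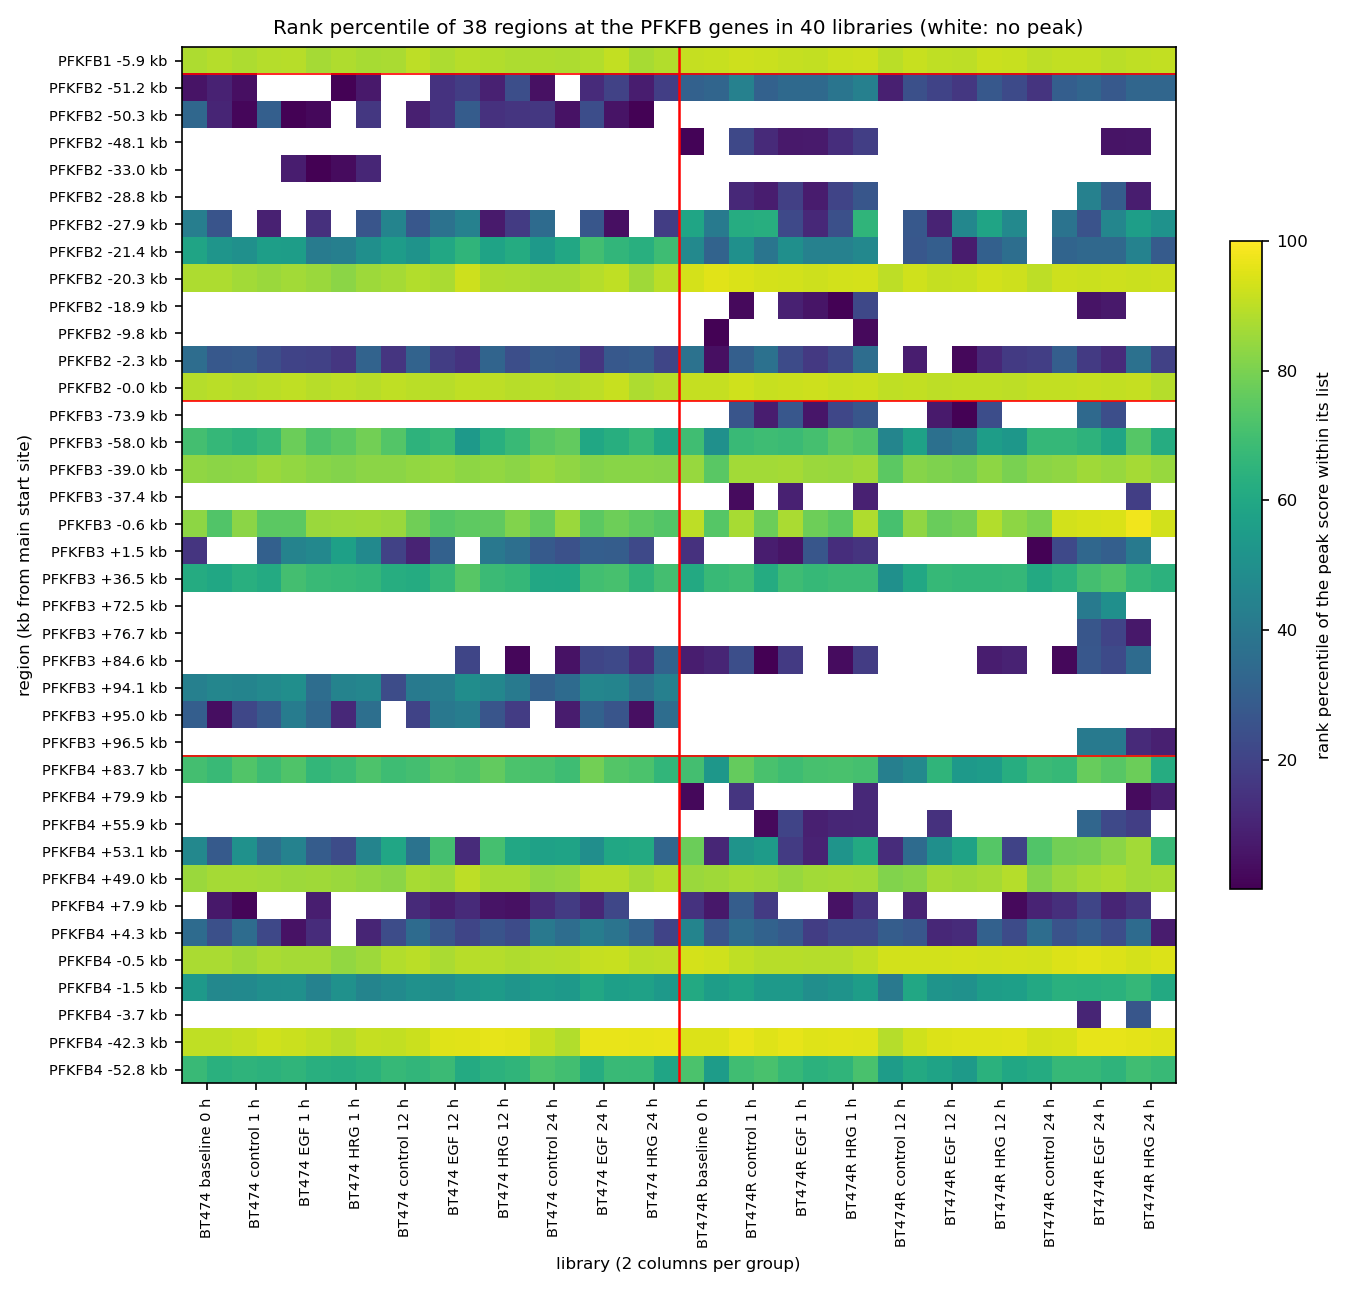
Rank percentile (colour scale from 0 to 100, white where there was no peak) of all 38 regions (rows, by gene and position, separated by red lines) in the 40 libraries (columns, 2 per group, BT474 left and BT474R right of the red line). The 14 rows without white are the regions open in every library, and the block of +72.5, +76.7 and +96.5 kb from PFKFB3 is filled in the 24 h EGF columns of BT474R.

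The times differed in how many regions passed. With EGF-BT474, 0 members passed at 1 h, 2 rose at 12 h, and 4 rose and 1 fell at 24 h, against 3.95%, 8.05% and 15.0% of all tested regions. With HRG-BT474, 1 rose and 1 fell at 1 h, 2 rose at 12 h, and 3 rose and 1 fell at 24 h, against 9.96%, 10.2% and 12.9%. With EGF-BT474R, 0 passed at 1 h, 2 rose at 12 h and 7 rose at 24 h, against 2.96%, 5.14% and 16.3%. The 7 include the +72.5 and +76.7 kb regions of PFKFB3, and with equal numbers of top peaks 2 regions passed at 24 h. With HRG-BT474R, 0 passed at 1 h, 2 rose at 12 h and 0 passed at 24 h, against 0.63%, 7.39% and 0.742%. The vehicle control differed from baseline at 0 regions in both lines by limma, against 0.2% and 0.613% of all tested regions. All these shares are of adjusted calls in both directions. At an unadjusted p under 0.05, EGF had 4 regions in BT474 and 5 in BT474R at 1 h, and HRG had 3 at 1 h and 4 at 24 h in BT474R. Control against baseline had 0 in BT474 and 1 in BT474R at that threshold. No share of all regions at the unadjusted threshold is given, so these counts are descriptions and are not comparable with the shares above.

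Presence alone called no member with a ligand. By Fisher's exact test of 6 against 6 libraries, only 1 member in EGF-BT474, 1 in HRG-BT474, 7 in EGF-BT474R and 4 in HRG-BT474R could have been called, and 0 were, also at an unadjusted p under 0.05. Of all regions that could be called, 19.0%, 24.7%, 4.08% and 2.31% had an unadjusted p under 0.05, in the same order. No share of all regions after adjustment is given for this test. A region seen at 1 time only, as at +72.5 kb, has at most 2 of 6 libraries and cannot be called by this test.

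Whether a ligand acted differently in the 2 lines was tested directly. The EGF effect over the pooled times differed at 6 of 38 regions, 5 larger in BT474R and 1 larger in BT474, against 8.75% of all regions. The HRG effect differed at 1, the +96.5 kb region, against 6.12%. The HRG call (3.42 points, limma adjusted p = 0.029) was lost without any one of 6 libraries, with adjusted p between 0.050 and 0.057. The EGF effect was 13.72 points larger in BT474R at +96.5 kb of PFKFB3 (limma adjusted p = 5.4e-10), 13.37 points at -28.8 kb from PFKFB2 (adjusted p = 0.0023) and 16.04 points at +55.9 kb from PFKFB4 (adjusted p = 0.0045). The other 2 of these 5 were the +72.5 and +76.7 kb regions, where the filter fixed the difference. All 5 had no peak in BT474, so these values are the effects in BT474R. The EGF effect at +95.0 kb was 23.17 points smaller in BT474R, where the region had no peak (adjusted p = 0.032), a call lost without any one of 14 libraries (adjusted p between 0.050 and 0.080). At +36.5 kb from PFKFB3 and at the main promoters the effects were not shown to differ.

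The windows were searched for the AP-1 consensus shown above. A TGANTCA match was present in 9 of the 38 windows (23.7%), against 19.3% of the 300-base windows of all 71600 regions on both strands. All 7 regions that rose with EGF-BT474R at 24 h were among these 9, as were all 8 that rose over the pooled times. Both counts include the +72.5 and +76.7 kb regions, and with equal numbers of top peaks they were 2 and 1. Only 2 of the 27 regions tested at 24 h and not called held a match. Over all regions, 58.7% of those that rose with EGF-BT474R at 24 h held a match, 7.43% of those that fell and 12.1% of those not called. In EGF-BT474, 3 of the 5 regions that rose over the pooled times held a match and 0 of the 21 not called. Over all regions the shares there were 49.0% and 12.5%. With HRG over the pooled times, 2 of the 3 that rose in BT474 and both that rose in BT474R held a match. The 1 region that rose with HRG-BT474 at 1 h held none. Of all regions that rose in these 3 comparisons, 56.1%, 58.3% and 56.4% held a match. The matches at +36.5, +72.5, +76.7 and +96.5 kb from PFKFB3 are capitalised in the sequences above. The -33.0, +84.6, +94.1 and +95.0 kb windows held none.

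Other motifs were close to their shares over all regions. The hypoxia element (ACGTG or GCGTG) was found in 15 of 38 windows (39.5%, against 38.1%), with 6 matches in the -39.0 kb promoter of PFKFB3 and 3 each in the main promoters of PFKFB3 and PFKFB4. It overlaps the E-box (CACGTG), found in 2 windows (5.26%, against 5.79%). The GATA motif AGATAA was found in 6 (15.8%, against 13.9%), TEAD GGAATG in 7 (18.4%, against 18.9%), AP-2 GCCNNNGGC in 9 (23.7%, against 21.4%), STAT TTCNNNGAA in 4 (10.5%, against 8.44%) and forkhead TGTTTAC in 2 (5.26%, against 10.3%). The cyclic AMP element TGACGTCA was found in 1, at +83.7 kb from PFKFB4 (2.63%, against 0.788%). A match is a description of the letters and not a bound site.

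Genes around the PFKFB step of glycolysis were described by the highest-ranked region at their start sites. Of 6 partner genes (PFKM, PFKL, PFKP, FBP1, FBP2 and TIGAR, which make or break down fructose 1,6-bisphosphate or its regulator), 5 had a region and 3 of these were open in all 40 libraries. None passed a ligand test over the pooled times in either line. Of 15 glucose transporter and glycolysis genes, 14 had a region and 13 were open everywhere. Only SLC2A3 and ENO1 passed, both higher with EGF-BT474R, by 10.97 points (limma adjusted p = 0.017) and 3.33 points (adjusted p = 0.023), beside the 16.2% called among all regions. The SLC2A3 region had a peak in only 2 BT474 and 7 BT474R libraries. All 6 regulators (HIF1A, EPAS1, ARNT, PRKAA1, PRKAA2 and AKT1) were open everywhere, and PRKAA1 alone passed, higher by 2.36 points with EGF-BT474 and 2.44 points with HRG-BT474 (adjusted p = 0.0022 and 0.0016), beside 18.6% and 19.9% of all regions. Between the lines, where 77.6% of all regions were called, 1 partner gene was higher in BT474R and 4 were lower, 6 glycolysis genes were higher and 6 lower, and 4 regulators were higher and 2 lower. PFKP, the platelet isoform of phosphofructokinase-1, had the largest difference of the partner genes, with a mean percentile of 71.5 in BT474 and 26.6 in BT474R.

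Among the leading promoter regions of 14212 protein-coding genes, those whose percentile most closely followed a PFKFB promoter over the 40 libraries were found by Spearman's rho. They were MRPS10 and BRINP2 for PFKFB2 (rho 0.863 and 0.862), GLB1 and TBC1D14 for the -39.0 kb promoter of PFKFB3 (0.882 and 0.859) and SLC19A1 and NTMT1 for PFKFB4 (0.916 and 0.895). The libraries share line, time and list length. Over all 40 libraries the PFKFB promoters themselves followed the number of peaks with rho of 0.212, 0.489 and -0.165. Within BT474 these were 0.37, -0.01 and 0.72, and within BT474R 0.77, 0.83 and -0.25, so the values over both lines hide a closer relation within a line. These values are descriptions, chosen as the highest of many.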

How the data were processed

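ATAC-seq was performed on BT474 and BT474R cells, with 2 libraries in each of 20 groups. The authors trimmed the reads, aligned them to GRCh38.p13 with BBMap and called peaks per library with Genrich after removal of mitochondrial and blacklisted regions. The submitters' processing notes name Trim Galore 0.6.6, FastQC, Genrich, hg38 and GRCh38.p13. The Genrich options were not given in the sources used here. The deposited peak lists give a score for each peak, the area under its significance curve, and its −log10 p and −log10 q, as the authors' peak caller wrote them. They hold no read counts, so depth was unknown, the number of peaks per list stood in for it, and the read-based model of the study was not repeated.

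From these lists, regions were merged and percentiles ranked as described above, with the highest peak of a library taken for a region and genes from GENCODE for GRCh38. Percentiles were fitted with limma 3.58.1 in R 4.3.3, with trend and robust options and 1 mean per group, over all regions open in at least 2 libraries of the fit. Fits within a line used its 20 libraries and fits between lines all 40. The presence of a peak was tested with the two-sided Fisher's exact test in scipy 1.17.1, over regions where a p under 0.05 could be reached. All p-values were Benjamini-Hochberg adjusted over all regions tested, and a call is an adjusted p under 0.05. EGF and HRG share their control libraries. Pooled effects were also tested by exact two-sided permutation of ligand and control within times. The methods were tested on simulated data. The most similar libraries had 91.2% of their regions in common, and all 40 were kept as separate.

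Regions named in full were each gene's leading promoter and leading other region and every region called in a test, and the rest are given by range and count. The members, gene lists and motifs were chosen with earlier results of these data known. The alternatives tried were a minimum peak score of 400, equal numbers of top peaks, 50% coverage of the region, regions in at least 4 lists, a peak in every library, a flank of 10 kb, a replicate block and the omission of each library in turn.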

Additional observations from a re-analysis of the deposited data

Results flagged for a closer look

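The effect of a ligand differed between the lines at 6 regions for EGF and at 1 of these for HRG, by a test of the difference itself in all 40 libraries (limma with Benjamini-Hochberg adjustment). The EGF effect in BT474R less the one in BT474 came to 15.16 points at +72.5 kb from PFKFB3, 7.93 points at +76.7 kb, -23.17 points at +95.0 kb and 13.72 points at +96.5 kb. It was 13.37 points at -28.8 kb from PFKFB2 and 16.04 points at +55.9 kb from PFKFB4. For HRG it was 3.42 points at +96.5 kb (adjusted p = 0.029). The +72.5 and +76.7 kb regions were tested only because of their peaks in the EGF-BT474R libraries, so their values are descriptions. The call at +95.0 kb was lost without any one of 14 libraries and the HRG call at +96.5 kb without any one of 6. Each of these regions had a peak in 1 of the lines only, so the difference repeats the effect in that line, and the fit takes the spread of the line without peaks as 0.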

How the results depend on the processing

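No call changed direction under any alternative run. Of the 88 calls on single regions, 33 held and 31 were lost with equal numbers of top peaks, where 24 had too few peaks left to be tested, 74 held and 14 were lost when a peak had to cover 50% of the region, and 50 held and 14 were lost at a score of at least 400, where again 24 were not tested. The counts of members called changed as follows. With equal numbers of top peaks, EGF-BT474 fell from 5 to 3 (pooled) and 2 to 1 (12 h), HRG-BT474 from 2 to 1 (1 h), 2 to 1 (12 h) and 4 to 2 (24 h), EGF-BT474R from 8 to 1 (pooled) and 7 to 2 (24 h), HRG-BT474R from 2 to 0 (pooled) and 2 to 1 (12 h), EGF against HRG in BT474R from 3 to 0, the EGF difference between lines from 6 to 2 and presence between lines from 9 to 4, while the HRG difference went from 1 to 2. With 50% coverage, EGF-BT474 became 3 (pooled), 1 (12 h) and 3 (24 h), HRG-BT474 0 (1 h), 1 (12 h) and 2 (24 h), HRG-BT474R 1 (24 h, from 0) and the HRG difference 2. Among regions with a peak in every library of the fit, EGF-BT474 became 3, HRG-BT474 2 (pooled), 0 (1 h), 1 (12 h) and 2 (24 h), EGF-BT474R 3 (pooled) and 1 (24 h), EGF against HRG in BT474R 0, both differences 0 and the lines 9 (from 24), because fewer regions were tested. The 10 kb flank, which also leaves fewer members, gave EGF-BT474 2 (pooled), 1 (12 h) and 3 (24 h), HRG-BT474 2, 0 (12 h) and 2 (24 h), EGF-BT474R 3, 1 (12 h) and 2 (24 h), HRG-BT474R 1 and 1 (12 h), EGF against HRG 0, the EGF and HRG differences 1 and 0, the lines 12 and presence 2. A score of at least 400 gave EGF-BT474 1 (1 h, from 0), HRG-BT474 1 (1 h), 1 (12 h) and 2 (24 h), EGF-BT474R 5 and 3 (24 h), EGF against HRG 1, the EGF difference 3 and presence 2. Regions in at least 4 lists gave EGF against HRG 1 and the HRG difference 0. The exact permutation test gave 0 in all 4 pooled comparisons, where 216 arrangements bound the p. Where no reason is given, the cause was not tested.

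Leaving out 1 library at a time gave 2 to 8 (pooled), 0 to 1 (1 h), 0 to 6 (12 h) and 1 to 6 (24 h) for EGF-BT474, 2 to 6, 0 to 3, 1 to 2 and 1 to 5 for HRG-BT474, 5 to 9, 0 to 3, 0 to 3 and 3 to 8 for EGF-BT474R, and 0 to 5, 0 to 1, 0 to 4 and 0 to 4 for HRG-BT474R. It gave 2 to 5 for EGF against HRG in BT474R, 0 to 2 for control against baseline in BT474R, 4 to 7 and 0 to 4 for the EGF and HRG differences between lines, 23 to 27 for the lines and 9 to 10 for presence between lines. The replicate numbers did not pair the samples: deviations of same-numbered libraries correlated between -0.107 and 0.163, above 0.1 in 3 of 12 pairs. With the replicate number as a block, HRG-BT474R went from 2 to 1, and 77 calls held and 2 were lost, the 9 on presence having no such fit. Depth could not be weighed without read totals, and a weak region absent from a short list may lie under its threshold.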
